A study of Mus musculus with 12 samples.

Results

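The genes described are 33 DNA repair and replication stress genes, taken by symbol from a count table of 37141 genes measured in mouse hepatocytes. They comprise 13 homologous recombination genes, the 3 genes of the MRE11-RAD50-NBS1 (MRN) complex, 4 Fanconi anaemia genes, 5 genes of mismatch, base and lesion bypass repair, 6 checkpoint and fork protection genes and 2 genes that recognise ultraviolet damage. The study compared how hepatocytes with and without YAP and TAZ, transcriptional effectors of the Hippo pathway, regenerate after acute liver injury. It holds 4 groups of 3 samples. All mice carried Yapflox/flox and Tazflox/flox alleles. The group ctrl was uninjured and is labelled WT for its effective genotype, and ctrl + CCl4 was collected 48 h after an intraperitoneal dose of 1 ml/kg carbon tetrachloride (CCl4) in corn oil. The group Yap/Taz KO had received an AAV8 vector carrying Cre recombinase under the TBG promoter, which is active in hepatocytes, 3 weeks before collection. Yap/Taz KO + CCl4 received the same vector and, 3 weeks later, the same CCl4 dose, again with collection at 48 h. The labels name no control vector and no vehicle injection for the other groups, so each effect includes that of its vector or injection. Each library came from 500000 hepatocytes sorted by flow cytometry, and whether the samples of a group are separate animals is not in the labels. The p-values therefore cover only sample-to-sample spread, which could be technical.

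Carbon tetrachloride is turned into a reactive radical by cytochrome P450 in hepatocytes around the central vein, which die and are replaced by division of the surviving hepatocytes. Homologous recombination repairs double-strand breaks and broken forks from the sister chromatid, and the Fanconi pathway removes crosslinks between strands. Mismatch and base repair correct single bases, nucleotide excision repair removes bulky lesions, and the kinases ATR and ATM pass the damage signal to CHK1 and CHK2. Many genes of homologous recombination and of the ATR checkpoint are transcribed from late G1 into S phase under E2F factors, and stay low in resting cells such as the hepatocytes of an adult liver.

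Library totals were 1617761 to 3028951 counts, and 10780 genes passed the low-count filter and were tested. Levels are given as CPM (counts scaled to a common library size) on library sizes scaled by TMM, a method that centres the bulk of genes. Each library reads tags near the 3′ end of a transcript. Yap1, which encodes YAP, averaged 58.0 ± 16.1 CPM in ctrl and 15.6 ± 6.30 CPM in Yap/Taz KO (SD, n = 3 each), and 56.6 ± 8.02 and 14.5 ± 0.313 CPM in the injured groups. Its log2 fold change was -1.89 (SE 0.31, adjusted p = 0.102) before and -1.96 (SE 0.30, adjusted p = 0.0995) after injury, short of the threshold of 0.05 in edgeR. Wwtr1, which encodes TAZ, gave -1.40 (SE 0.33, adjusted p = 0.235) and -0.53 (SE 0.31, adjusted p = 0.983). In edgeR without the low-count filter the adjusted p of Yap1 was 1.26e-05 before and 6.92e-07 after injury. That of Wwtr1 was 0.0129 and 0.913. With the filter the fall of Yap1 was not called, so a missing call in the knockout contrasts does not show a missing effect. The 8 hepatocyte markers, led by Alb and Ttr, all held counts and summed to between 57378 and 155568 CPM in a library.

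After CCl4, most of the repair genes stood higher in both genotypes. Their summed level was 225, 243 and 195 CPM in ctrl replicates 1 to 3 and 535, 519.5 and 589 CPM in ctrl + CCl4. In Yap/Taz KO it was 232, 225 and 227 CPM and in Yap/Taz KO + CCl4 509, 512 and 443 CPM. All 6 injured libraries lay above all 6 uninjured ones, and the 2 injured groups were apart by a small margin, with the lowest ctrl + CCl4 library at 519.5 and the highest knockout library at 512.5 CPM. Of the 33 genes, 20 were higher in every injured than in every uninjured library, 18 of them among the 28 that passed the filter; over all tested genes 8.55% did the same. Because these are bulk samples, a change in which cells were present and a change in the RNA of each cell cannot be told apart.

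**Figure D1:**
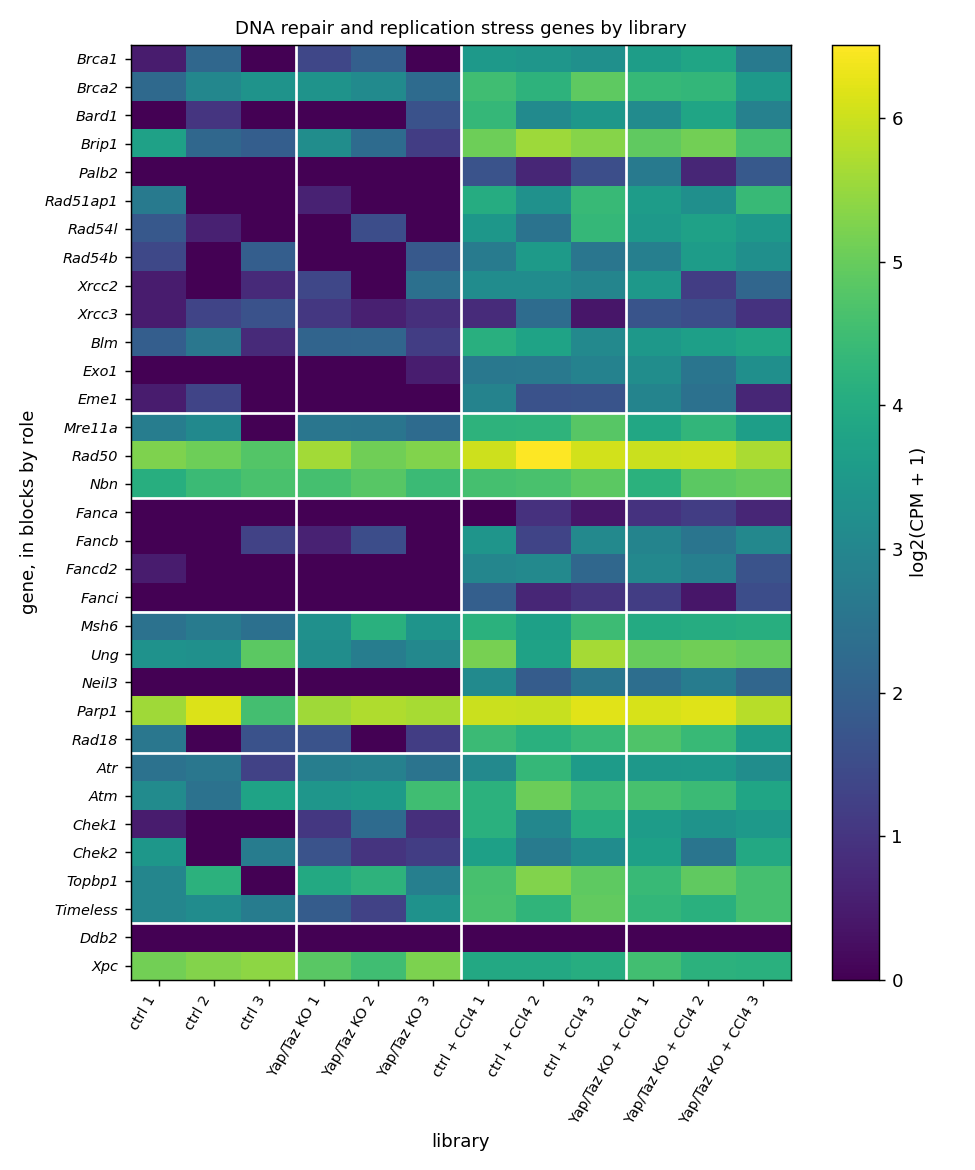
Level of each of the 33 genes in each of the 12 libraries, as log2(CPM + 1) in colour; rows are genes in blocks by role and columns are libraries by group. The 6 injured libraries on the right are brighter for 20 genes without overlap, Xpc at the bottom is darker in ctrl + CCl4 than in ctrl, and Ddb2 is at 0 in all 12.

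Of the 28 tested genes, edgeR's quasi-likelihood test called 21 higher and 1 lower in ctrl + CCl4 against ctrl, and 16 higher and 0 lower in Yap/Taz KO + CCl4 against Yap/Taz KO. Over all genes tested, 10.5% were called higher and 12% lower in ctrl, and 9.42% and 8.35% in Yap/Taz KO. That split depends on the scaling: TMM gave 1137 genes higher and 1290 lower in ctrl and 1016 and 900 in Yap/Taz KO, whereas library totals gave 1974 and 698, and 1814 and 406. The median log2 fold change of the 28 genes was 2.21 in ctrl and 2.28 in Yap/Taz KO, beside 0.03 in both over all genes. Setting the genes with few uninjured counts to their bounds or count ratios left both medians as they were. It could not move them, because those genes lay above the medians either way. The filter bears on these counts. It asked for about 3.93 CPM in 3 libraries, and 16 of the 28 genes reached that in fewer than 3 uninjured libraries, so they could enter mainly through the injured groups. Of the 12 genes that reached it in 3 or more uninjured libraries, 8 rose in ctrl (Brca2, Mre11a, Rad50, Msh6, Atr, Atm, Topbp1 and Timeless) and 2 in Yap/Taz KO (Ung and Timeless). Palb2, Xrcc3, Fanca, Fanci and Ddb2 did not pass the filter and have no test.

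RefSeq promoters of 300 bases (250 before to 50 after the start, GRCm38.p6) were found for 25 of the 33 genes and searched on both strands for the E2F-type letters TTTCCCGC, TTTGGCGC, TTTGCCGC and TTTCGCGC. They were present in 5 of 25 promoters (20.0%), against 2.61% of 27025 promoters in the table, 9.90% of 101 promoters of other repair genes and 47.8% of 23 promoters of replication genes. The letters TTTGAA of the cell cycle homology region (CHR), found at many mitotic genes, were in 2 of 25 (8.00%), against 20.2% of all promoters and 71.4% of 21 promoters of mitosis genes. A match is only a match of letters. Of the 25 promoters, 20 belong to genes called higher after injury in at least 1 genotype, and 5 of these 20 (25%) held the E2F-type letters. Only 1 belongs to a tested gene not called higher, and it held none, so the letters cannot be set against the calls. The 5 promoters are printed here 5′ to 3′ in the direction of the gene with the match in capitals. Bard1 lies at chr1:71102923-71103222, minus strand, Brca2 at chr5:150522371-150522670, plus strand, Chek2 at chr5:110839733-110840032, plus strand, Msh6 at chr17:87974800-87975099, plus strand and Topbp1 at chr9:103305077-103305376, plus strand.
Bard1: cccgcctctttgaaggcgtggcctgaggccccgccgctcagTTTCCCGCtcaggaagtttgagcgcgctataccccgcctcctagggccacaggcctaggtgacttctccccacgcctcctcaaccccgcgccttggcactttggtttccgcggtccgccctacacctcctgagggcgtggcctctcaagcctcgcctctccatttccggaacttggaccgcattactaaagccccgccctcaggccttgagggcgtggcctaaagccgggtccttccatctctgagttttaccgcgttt
Brca2: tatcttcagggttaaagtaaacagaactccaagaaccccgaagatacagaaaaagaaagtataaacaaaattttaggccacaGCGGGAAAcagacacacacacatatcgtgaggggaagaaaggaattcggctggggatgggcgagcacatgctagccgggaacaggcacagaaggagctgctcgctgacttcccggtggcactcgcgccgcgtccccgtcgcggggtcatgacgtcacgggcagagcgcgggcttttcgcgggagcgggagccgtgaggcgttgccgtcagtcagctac
Chek2: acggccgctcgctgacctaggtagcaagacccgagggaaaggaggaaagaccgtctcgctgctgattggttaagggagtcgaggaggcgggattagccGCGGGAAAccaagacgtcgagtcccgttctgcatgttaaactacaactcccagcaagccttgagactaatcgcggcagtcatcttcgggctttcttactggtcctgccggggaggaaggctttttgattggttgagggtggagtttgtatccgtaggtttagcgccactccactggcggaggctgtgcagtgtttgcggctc
Msh6: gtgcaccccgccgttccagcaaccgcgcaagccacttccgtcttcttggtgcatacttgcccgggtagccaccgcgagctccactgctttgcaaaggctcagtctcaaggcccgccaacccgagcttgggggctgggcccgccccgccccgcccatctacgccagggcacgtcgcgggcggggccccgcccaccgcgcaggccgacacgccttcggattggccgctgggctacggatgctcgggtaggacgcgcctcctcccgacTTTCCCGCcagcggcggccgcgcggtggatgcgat
Topbp1: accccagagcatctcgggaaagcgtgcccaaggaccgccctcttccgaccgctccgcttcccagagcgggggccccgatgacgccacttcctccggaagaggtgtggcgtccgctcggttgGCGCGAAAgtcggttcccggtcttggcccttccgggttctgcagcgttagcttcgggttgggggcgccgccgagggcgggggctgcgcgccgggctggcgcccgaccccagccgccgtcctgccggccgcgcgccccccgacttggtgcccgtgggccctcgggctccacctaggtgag

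In homologous recombination, 9 of the 11 tested genes rose in each genotype, 7 of them in both. The first 5 genes act around BRCA1 and BRCA2. Bard1 encodes the partner that forms a ubiquitin ligase with BRCA1. It was at 0, 1.01 and 0 CPM in ctrl replicates 1 to 3 and 19.0, 7.63 and 9.99 CPM in ctrl + CCl4. In the knockouts it was at 0, 0 and 2.13 CPM before and 7.89, 13.3 and 6.28 CPM after injury. Every injured library therefore lay above every uninjured one. With only 2 counts over the 3 ctrl libraries, the ratio in ctrl was 34.5 (95% counting interval 9.33 to 289); the fitted log2 fold changes were 4.96 (SE 1.05, adjusted p = 0.00361) in ctrl and 3.48 (SE 0.92, adjusted p = 0.0168) in Yap/Taz KO. Brip1, a helicase that binds BRCA1, was at 12.3, 3.52 and 2.84 CPM in ctrl and 32.6, 46.1 and 39.3 CPM in ctrl + CCl4. The knockout values were 8.12, 3.86 and 1.28 CPM and 29.4, 33.8 and 22.9 CPM. Brip1 had the highest uninjured level in replicate 1 of both genotypes, yet rose clear of it in both, with log2 fold changes of 2.57 (SE 0.52, adjusted p = 0.00245) and 2.73 (SE 0.54, adjusted p = 0.00300).

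Brca1 itself, which promotes end resection, ranged from 0 to 3.52 CPM in uninjured and from 5.34 to 13.3 CPM in injured libraries. It passed in both genotypes with the changes 2.77 (SE 0.88, adjusted p = 0.0347) and 2.73 (SE 0.86, adjusted p = 0.0408). Brca2, which acts at resected single strands, was at 3.70, 7.05 and 9.24 CPM in ctrl and 22.0, 17.4 and 28.7 CPM in ctrl + CCl4. Its knockout libraries held 9.21, 7.72 and 3.83 CPM before and 19.6, 19.0 and 10.4 CPM after injury. Neither genotype overlapped between states, and the lowest injured library was a knockout one. The rise passed in ctrl at 1.80 (SE 0.44, adjusted p = 0.00878), while Yap/Taz KO gave 1.25 (SE 0.44, adjusted p = 0.0611). Palb2, which bridges BRCA1 and BRCA2, held 0 counts in all 6 uninjured libraries, 14 counts in ctrl + CCl4 and 27 in Yap/Taz KO + CCl4. Against a floor of 3 counts over the group these are at least 2.98-fold and at least 5.93-fold higher, with no test in edgeR because Palb2 did not pass the filter.

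Rad51ap1 encodes a protein that stimulates strand invasion. It was at 5.35, 0 and 0 CPM in ctrl and 15.4, 8.85 and 20.0 CPM in ctrl + CCl4. Before injury the knockout libraries held 0.541, 0 and 0 CPM, and after it 11.05, 8.53 and 20.1 CPM. All 13 counts of the ctrl group came from replicate 1, and the Yap/Taz KO group held 1 count. The log2 fold change in ctrl was 2.81 (SE 0.84, adjusted p = 0.0261), and the ratio in Yap/Taz KO was 83.0 (95% counting interval 14.6 to 3303) with a fitted change of 5.98 (SE 1.22, adjusted p = 0.00352). Exo1, an exonuclease of end resection and mismatch repair, was at 0 in all 3 ctrl libraries and at 5.13, 5.19 and 6.44 CPM in ctrl + CCl4. The knockout libraries were at 0, 0 and 0.426 CPM and then 8.21, 4.74 and 8.48 CPM. Exo1 was thus nearly silent before injury, and was at least 10.9-fold higher in ctrl (fitted 6.85, SE 1.22, adjusted p = 0.00149), with a ratio of 44.8 (95% counting interval 7.77 to 1794) in Yap/Taz KO (fitted 5.12, SE 0.93, adjusted p = 0.00219).

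The RAD54 translocases, which move along DNA during strand exchange, are encoded by Rad54l and Rad54b. Rad54l ranged from 0 to 2.47 CPM in uninjured and 4.58 to 19.3 CPM in injured libraries, with changes of 3.25 (SE 0.90, adjusted p = 0.0176) in ctrl and 3.99 (SE 0.97, adjusted p = 0.0108) in Yap/Taz KO. Rad54b ranged from 0 to 2.84 CPM and 4.83 to 11.1 CPM, and passed in Yap/Taz KO at 3.14 (SE 0.97, adjusted p = 0.0375) with 2.28 (SE 0.95, adjusted p = 0.102) in ctrl. Both genes were higher in all 6 injured libraries. Blm, the helicase that dissolves crossed strands, rose in both genotypes, from 2.87 ± 2.16 to 12.1 ± 4.39 CPM in ctrl and from 2.63 ± 1.18 to 11.7 ± 1.54 CPM in the knockouts (SD, n = 3 each). Its log2 fold changes were 1.99 (SE 0.56, adjusted p = 0.0191) and 2.15 (SE 0.57, adjusted p = 0.0168).

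Xrcc2 and Xrcc3 encode proteins that assist strand exchange. Xrcc2 was at 0.411, 0 and 0.711 CPM in ctrl and 8.06, 7.93 and 6.77 CPM in ctrl + CCl4. In the knockouts it was at 1.62, 0 and 4.26 CPM and 10.1, 1.26 and 3.45 CPM, where the states overlapped. It held 2 counts in ctrl, which gives a ratio of 22.1 (95% counting interval 5.88 to 186) and a fitted change of 4.27 (SE 1.17, adjusted p = 0.0163), beside 1.27 (SE 0.90, adjusted p = 0.369) in Yap/Taz KO. Xrcc3 did not pass the filter and stayed at or below 3.97 CPM in every library, with overlap between states in both genotypes. Eme1, part of the endonuclease that cuts joined strands with MUS81, held 4 counts in ctrl and 0 in Yap/Taz KO. After injury it was at least 8.12-fold higher in Yap/Taz KO (fitted 6.33, SE 1.69, adjusted p = 0.0209), and ctrl gave 2.34 (SE 1.10, adjusted p = 0.155). The lowest injured value of Eme1 was 0.628 CPM, in Yap/Taz KO + CCl4 replicate 3, below the 1.51 CPM of ctrl replicate 2.

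The MRN complex binds broken ends and activates ATM. Its ATPase gene Rad50 was at 37.0, 32.7 and 26.3 CPM in ctrl and 64.1, 90.3 and 66.0 CPM in ctrl + CCl4. The knockout libraries held 47.7, 33.3 and 37.9 CPM before and 63.1, 63.2 and 50.6 CPM after injury. The 6 injured libraries were all higher than the 6 uninjured ones, and all 3 Yap/Taz KO + CCl4 libraries lay just below the 3 of ctrl + CCl4. The log2 fold change was 1.19 (SE 0.24, adjusted p = 0.00225) in ctrl and 0.58 (SE 0.23, adjusted p = 0.105) in Yap/Taz KO. Mre11a, the nuclease of the complex, was at 5.76, 7.55 and 0 CPM in ctrl and 17.6, 18.0 and 27.4 CPM in ctrl + CCl4. In the knockouts it was at 4.87, 4.83 and 3.83 CPM and 13.9, 18.6 and 11.6 CPM. It too was higher in every injured library, and passed in ctrl (2.14, SE 0.57, adjusted p = 0.0144) with 1.70 (SE 0.58, adjusted p = 0.0539) in Yap/Taz KO. Nbn, which encodes the third subunit NBS1, overlapped between states in both genotypes, over 16.0 to 27.5 CPM uninjured and 16.7 to 30.1 CPM injured. Its change was 0.32 in ctrl with a 95% interval of -0.30 to 0.93, and 0.07 in Yap/Taz KO with an interval of -0.54 to 0.67; neither passed (adjusted p = 0.475 and 0.906).

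The Fanconi genes were close to 0 in uninjured hepatocytes. Fancd2, a subunit of the clamp that closes on crosslinked DNA once it is ubiquitinated, was at 0.411, 0 and 0 CPM in ctrl and 6.96, 7.32 and 3.54 CPM in ctrl + CCl4. It held 0 counts in Yap/Taz KO and 7.26, 6.003 and 2.20 CPM after injury. The ratio in ctrl was 34.5 (95% counting interval 5.94 to 1388) with a fitted change of 4.79 (SE 1.05, adjusted p = 0.00580), and in Yap/Taz KO the gene was at least 10.8-fold higher (fitted 6.74, SE 1.33, adjusted p = 0.00376). Fanci encodes the other part of that clamp. It had no count in the 6 uninjured libraries and 0.316 to 2.93 CPM in the 6 injured ones, too few to pass the filter. Fancb and Fanca belong to the core complex that ubiquitinates the clamp. Fancb held 2 counts in ctrl, for a ratio of 17.3 (95% counting interval 4.55 to 146) (fitted 3.90, SE 1.17, adjusted p = 0.0263), and gave 2.87 (SE 1.01, adjusted p = 0.0640) in Yap/Taz KO. Fanca had 4 counts in ctrl + CCl4 and 9 in Yap/Taz KO + CCl4 with none before injury, near the floor of 3 counts. The 3′ ends of Fanca, Fanci and Fancd2 overlap exons of genes on the other strand (Zfp276, Polg and Fancd2os), as that of Eme1 does with Lrrc59.

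Among the genes of mismatch, base and lesion bypass repair, 3 of 5 rose in each genotype: Msh6, Neil3 and Rad18 in ctrl, and Ung, Neil3 and Rad18 in Yap/Taz KO. Msh6, which recognises mismatches, was at 4.52, 5.54 and 4.26 CPM in ctrl and 16.8, 11.9 and 20.9 CPM in ctrl + CCl4. The knockout libraries were at 8.66, 16.4 and 9.37 CPM before and 14.8, 15.5 and 16.0 CPM after injury. The uninjured knockout libraries thus lay above all 3 ctrl libraries, and replicate 2 among them was above every Yap/Taz KO + CCl4 library. The change was 1.78 (SE 0.39, adjusted p = 0.00426) in ctrl and 0.43 (SE 0.35, adjusted p = 0.453) in Yap/Taz KO. Ung, the glycosylase that removes uracil from DNA, was at 9.05, 8.56 and 28.4 CPM in ctrl and 35.2, 12.5 and 48.3 CPM in ctrl + CCl4. Knockout libraries were at 8.12, 5.79 and 7.24 CPM and 31.3, 33.5 and 31.1 CPM. The ctrl libraries overlapped between states, with replicate 3 high before injury and replicate 2 low after it, while the knockout libraries were tightly grouped. Ung passed in Yap/Taz KO at 2.17 (SE 0.51, adjusted p = 0.00905), with 1.11 (SE 0.49, adjusted p = 0.121) in ctrl.

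Neil3, a glycosylase for oxidised bases and for crosslinks at forks, had no count in any uninjured library. After injury it was at 7.69, 2.75 and 4.83 CPM in ctrl + CCl4 and 4.10, 5.69 and 3.45 CPM in Yap/Taz KO + CCl4. It was at least 9.59-fold higher in ctrl and at least 9.22-fold higher in Yap/Taz KO, with fitted changes of 6.71 (SE 1.33, adjusted p = 0.00438) and 6.51 (SE 1.31, adjusted p = 0.00618). Rad18, the ligase that marks PCNA at stalled forks, was at 4.94, 0 and 2.13 CPM in ctrl and 20.5, 16.5 and 20.0 CPM in ctrl + CCl4. The knockout values were 2.17, 0 and 1.28 CPM and 25.6, 19.9 and 11.3 CPM. Rad18 was clear of its uninjured range in all 6 injured libraries, with changes of 2.91 (SE 0.71, adjusted p = 0.00840) and 4.02 (SE 0.79, adjusted p = 0.00267). Parp1, which senses single-strand breaks, ranged from 22.7 to 70.5 CPM in uninjured and 55.6 to 73.5 CPM in injured libraries, where ctrl replicate 3 was the lowest and ctrl replicate 2 among the highest. The ctrl libraries overlapped between states. The knockout ones did not, at 47.1, 52.6 and 49.8 CPM before and 68.2, 72.0 and 55.6 CPM after injury. The change of Parp1 was 0.48 in ctrl, with an interval of -0.16 to 1.12, and 0.39 in Yap/Taz KO, with an interval of -0.25 to 1.02 (adjusted p = 0.286 and 0.413).

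In the checkpoint and fork group, 5 of 6 genes rose in ctrl and 3 of 6 in Yap/Taz KO. Chek1, the effector kinase of ATR, is at chr9:36708482-36727065 (GRCm38, minus strand). It was at 0.411, 0 and 0 CPM in ctrl and 16.5, 7.02 and 15.8 CPM in ctrl + CCl4. The knockout libraries were at 1.08, 3.86 and 0.852 CPM before and 11.05, 9.16 and 10.4 CPM after injury. Chek1 was higher in all 6 injured libraries, and the ctrl group held a single count against 12 in Yap/Taz KO. Its ratio in ctrl was 74.8 (95% counting interval 13.2 to 2979), with a fitted change of 5.91 (SE 0.89, adjusted p = 0.000278), and Yap/Taz KO gave 2.38 (SE 0.62, adjusted p = 0.0161). Timeless, part of the complex that protects forks, averaged 6.91 ± 1.18 and 24.1 ± 5.83 CPM in ctrl and ctrl + CCl4, and 4.37 ± 4.01 and 19.5 ± 3.44 CPM in the knockouts (SD, n = 3 each). It rose in both genotypes, with log2 fold changes of 1.78 (SE 0.47, adjusted p = 0.0130) and 2.11 (SE 0.49, adjusted p = 0.00773). Chek2, the effector kinase of ATM, was at 9.87, 0 and 5.69 CPM in ctrl and 12.1, 5.49 and 8.05 CPM in ctrl + CCl4, with overlap. It was at 2.17, 0.965 and 1.28 CPM and 11.995, 4.74 and 14.1 CPM in the knockouts, without overlap. Only the second change passed, at 2.79 (SE 0.88, adjusted p = 0.0412), beside 0.69 (SE 0.77, adjusted p = 0.573).

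The upstream kinases and TOPBP1, the activator of ATR, passed in ctrl alone. Atm was at 7.82, 4.53 and 12.8 CPM in ctrl and 17.2, 32.0 and 21.6 CPM in ctrl + CCl4. Its knockout values were 9.75, 10.6 and 21.7 CPM and 23.4, 20.9 and 13.2 CPM, which overlapped. The change was 1.53 (SE 0.44, adjusted p = 0.0221) in ctrl and 0.43 (SE 0.42, adjusted p = 0.525) in Yap/Taz KO. Atr ranged from 1.42 to 6.27 CPM in uninjured and 7.33 to 19.2 CPM in injured libraries, with changes of 1.71 (SE 0.50, adjusted p = 0.0233) and 0.76 (SE 0.48, adjusted p = 0.311). Topbp1 was at 6.99, 17.1 and 0 CPM in ctrl and 23.4, 38.1 and 29.0 CPM in ctrl + CCl4, and its knockout libraries at 14.6, 17.4 and 5.96 CPM and 19.9, 29.1 and 23.2 CPM. Both genes were higher in each injured than in each uninjured library. The changes of Topbp1 were 1.85 (SE 0.63, adjusted p = 0.0474) in ctrl and 0.94 (SE 0.61, adjusted p = 0.323) in Yap/Taz KO.

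Xpc, which finds bulky lesions for nucleotide excision repair, went the other way. At chr6:91489305-91515888 (GRCm38, minus strand), it was at 33.7, 38.8 and 41.2 CPM in ctrl and 14.3, 14.3 and 15.8 CPM in ctrl + CCl4. The knockout libraries held 27.6, 21.7 and 36.6 CPM before and 22.1, 17.1 and 16.6 CPM after injury. The ctrl libraries were far apart between states, whereas the knockout ones overlapped, with injured replicate 1 just above uninjured replicate 2. The change was -1.35 (SE 0.26, adjusted p = 0.00207) in ctrl and -0.62 (SE 0.26, adjusted p = 0.115) in Yap/Taz KO. Ddb2, which hands ultraviolet lesions to XPC, had 0 counts in all 12 libraries, which allows a level of up to 0.0990 CPM over all of them, for counting error only. The last 500 bases of Ddb2 lie wholly under exons of Acp2 on the other strand.

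**Figure D2:**
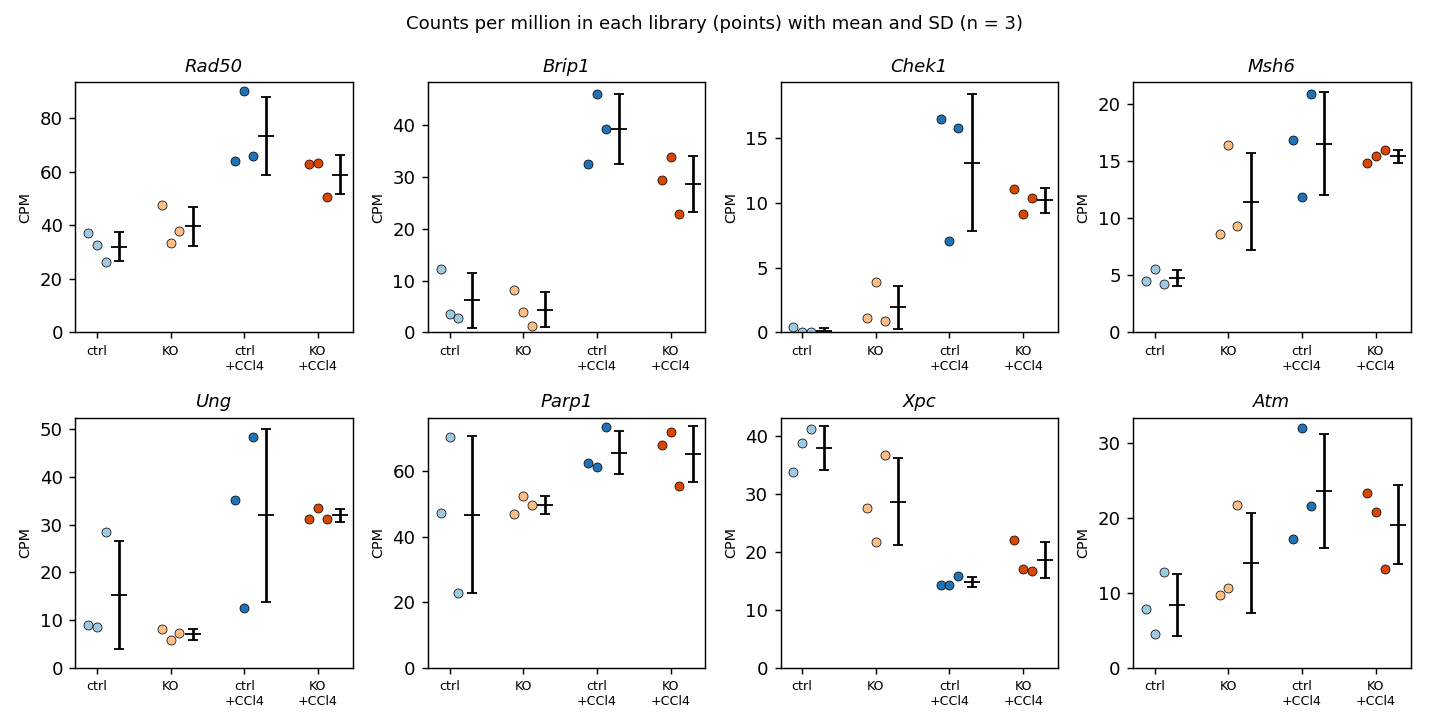
Level in CPM of 8 of the genes in each library, as points by group, with the group mean and SD (n = 3) beside them. Brip1 and Chek1 lie higher in every injured library, Ung and Parp1 overlap between ctrl and ctrl + CCl4, and Xpc lies lower in every ctrl + CCl4 than in every ctrl library but overlaps between the knockout states.

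**Figure D3:**
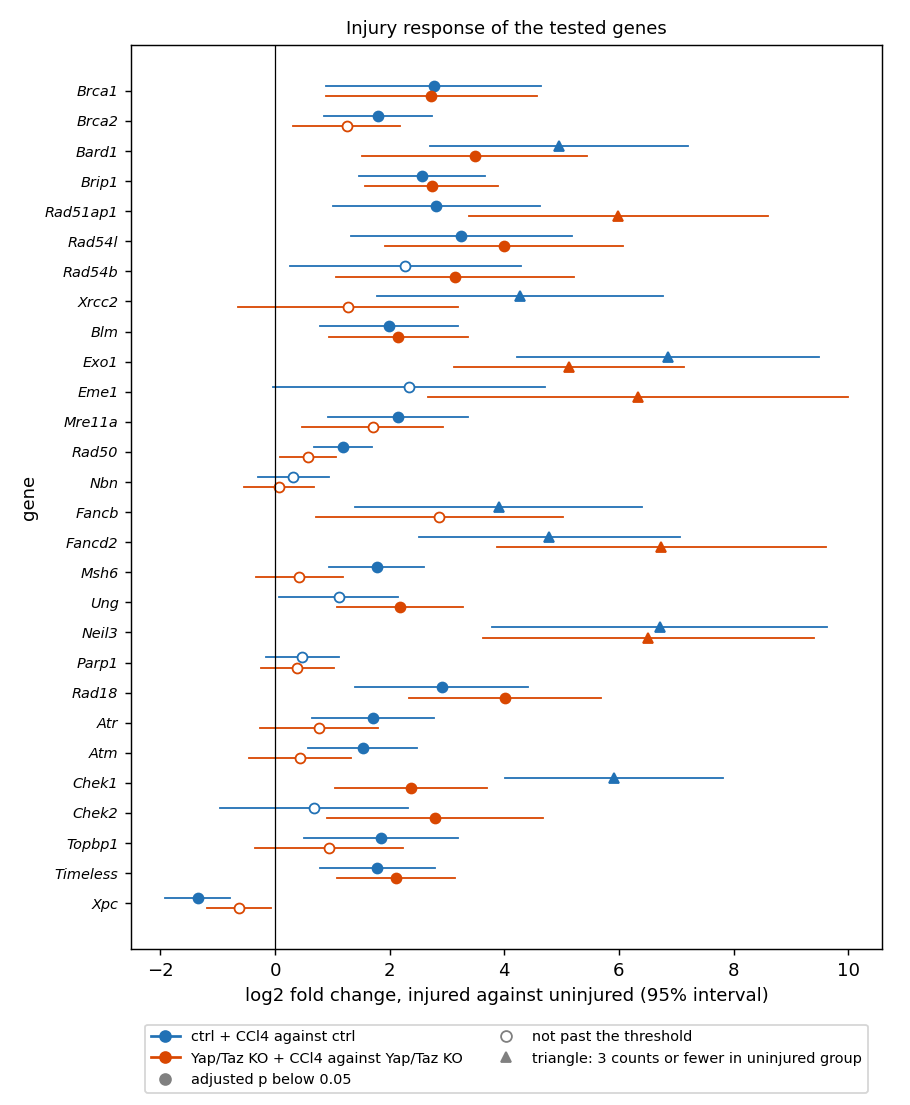
Fitted log2 fold change with its 95% interval for the 28 tested genes, in ctrl (blue) and Yap/Taz KO (orange); filled symbols passed an adjusted p of 0.05 and triangles mark genes with 3 counts or fewer in the uninjured group, whose fitted value is no bound. There are 22 filled symbols in ctrl and 16 in Yap/Taz KO, and the values for Xpc are the 2 below 0.

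Across both genotypes, 25 of the 28 tested genes rose in at least 1, and 12 rose in both: Brca1, Bard1, Brip1, Rad51ap1, Rad54l, Blm, Exo1, Fancd2, Neil3, Rad18, Chek1 and Timeless. Another 9 passed in ctrl alone and 4 in Yap/Taz KO alone. Over all genes tested, 10.5% were called higher in ctrl and 9.42% in Yap/Taz KO. The shares called in at least 1 or in both genotypes were not taken. All of the 12 genes but Timeless are among the 16 that reached the filter in fewer than 3 uninjured libraries, so they could enter mainly through the injured groups. Passing in 1 genotype does not show a difference between genotypes, which the interaction term tested directly. In that test edgeR called 0 of the 28 genes, with 0% of all genes called, and 2 of the 28 had an unadjusted p under 0.05; DESeq2 and limma-voom also called 0 of the 28. The 2 were Chek1 and Msh6, whose responses differed, Yap/Taz KO minus ctrl, by -3.53 (SE 1.22, adjusted p = 0.552) and -1.35 (SE 0.52, adjusted p = 0.589) on the log2 scale. In both, the uninjured knockout libraries were higher than the ctrl ones while the injured groups overlapped. The next smallest p-values belonged to Xpc (0.72, SE 0.37, adjusted p = 0.630), Xrcc2 (-3.00, SE 1.53, adjusted p = 0.630), Rad51ap1 (3.17, SE 1.68, adjusted p = 0.634) and Rad50 (-0.62, SE 0.33, adjusted p = 0.638). Without ctrl replicate 1, which held every ctrl count of Rad51ap1 and of Chek1, the interaction value of Rad51ap1 changed sign to -2.26 (adjusted p = 0.734). That of Chek1 moved to -5.70 (adjusted p = 0.267). The ctrl group was then at 0 for both genes, so neither fitted value is a bound.

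In uninjured hepatocytes the knockout gave no call among the 28 genes in edgeR, DESeq2 or limma-voom, and 0% of all genes passed in edgeR. An unadjusted p under 0.05 was found for 3 of them. Msh6 was higher in all 3 Yap/Taz KO libraries (1.25, SE 0.40, adjusted p = 0.405), and so was Chek1, for which 12 counts against 1 give a ratio of 11.2 (95% counting interval 1.65 to 477) and a fitted change of 3.18 (SE 1.09, adjusted p = 0.422). Rad51ap1 gave -3.33 (SE 1.51, adjusted p = 0.515), again from ctrl replicate 1, without which the value was 2.11 (adjusted p = 0.750), and Chek1 moved to 5.34 (adjusted p = 0.289). Without that library both genes were at 0 in ctrl, so neither fitted value is a bound. Ung (-1.07, SE 0.54, adjusted p = 0.553), Chek2 (-1.83, SE 0.93, adjusted p = 0.557) and Eme1 (-3.90, SE 2.09, adjusted p = 0.579) came next. The intervals of Rad50, Nbn, Parp1 and Xpc lay within 1 log2 unit of 0, and those of the other genes did not or, for Neil3 at 0 in both groups, could not be had.

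After injury the knockout effect passed the threshold for none of the 28 genes in edgeR. The edgeR, DESeq2 and limma-voom tests each called 0 of them, none had an unadjusted p under 0.05 in edgeR, and 0% of all genes passed there. Log2 fold changes ran from -0.61 for Xrcc2 to 0.35 for Exo1, with a median of -0.13 beside -0.01 over all genes. Of the 28 genes 7 were above 0 and 21 below, and of all 10780 genes 5295 were above 0. Of the 33 genes, 31 overlapped between the 2 injured groups. That count includes Ddb2, at 0 in every library, and the untested Palb2, Xrcc3, Fanca and Fanci. The share of all genes that did so was not taken, so the genes without overlap have no background to be set against. Rad50 was lower in all 3 Yap/Taz KO + CCl4 libraries (-0.32, SE 0.23, adjusted p = 0.986) and Xpc higher in all 3 (0.33, SE 0.26, adjusted p = 0.990). The other genes with the smallest p-values were Brca2 (-0.48, SE 0.40, adjusted p = 0.990), Mre11a (-0.51, SE 0.51, adjusted p = 0.992), Brip1 (-0.46, SE 0.45, adjusted p = 0.992) and Atr (-0.39, SE 0.45, adjusted p = 0.992). For Rad50, Nbn, Msh6, Ung, Parp1 and Xpc the 95% interval lay within 1 log2 unit of 0, for example -0.80 to 0.17 for Rad50. For the other 22 a change of 1 log2 unit in at least 1 direction lies inside the interval, as for Chek1 with -1.46 to 0.75.

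**Figure D4:**
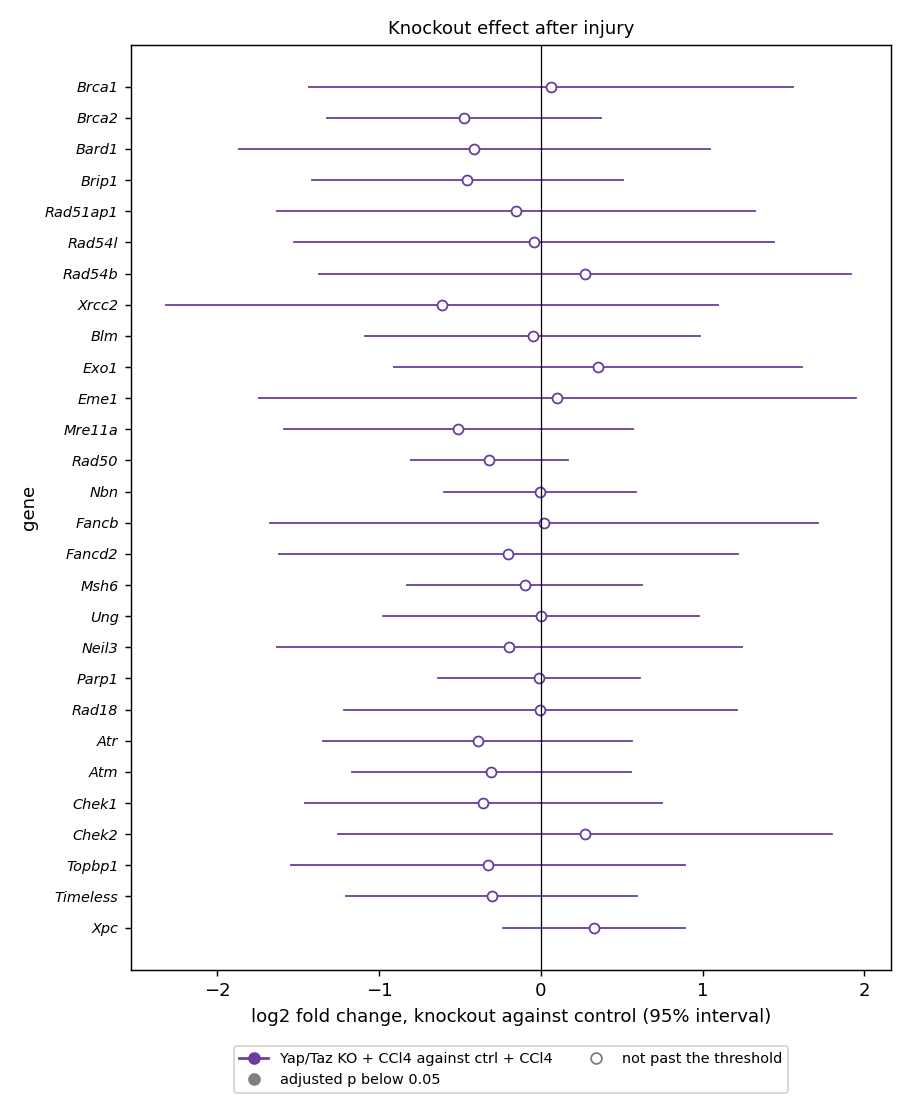
Log2 fold change of Yap/Taz KO + CCl4 against ctrl + CCl4 with its 95% interval for the 28 tested genes; open symbols did not pass the threshold, and no symbol is filled. All 28 intervals include 0, and they are narrowest for Rad50, Xpc, Nbn and Parp1.

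Other genes of these pathways were tested as well. Of 108 tested repair and checkpoint genes outside the 33, 24 were higher and 5 lower in ctrl after injury, with a median log2 fold change of 0.46, and 17 were higher and 1 lower in Yap/Taz KO, with a median of 0.34. In homologous recombination 7 of 24 rose in ctrl and 5 of 24 in Yap/Taz KO, among them Mms22l, which acts in recombination at stalled forks (3.87, SE 0.63, adjusted p = 0.000522 in ctrl). The other Fanconi genes gave 4 and 2 of 12, with Usp1, the enzyme that removes ubiquitin from FANCD2, at 1.61 (SE 0.23, adjusted p = 0.000205) in ctrl and 0.76 (SE 0.23, adjusted p = 0.0319) in Yap/Taz KO. Ube2t, the conjugating enzyme that puts ubiquitin on that clamp, was at 0 in all uninjured libraries and at least 9.59-fold higher in ctrl and at least 18.2-fold higher in Yap/Taz KO after injury. Of the other checkpoint genes 10 of 30 rose and 1 fell in ctrl and 8 rose in Yap/Taz KO; Clspn, the adaptor between ATR and CHK1, went from 0.960 to 25.1 CPM on average in ctrl (4.39, SE 0.69, adjusted p = 0.000373). Rpa1, a subunit of the factor that coats single strands, gave 1.35 (SE 0.27, adjusted p = 0.00330) in Yap/Taz KO. In base excision repair 3 of 12 rose and 1 fell in ctrl and 1 rose in Yap/Taz KO. The smallest p-value in each genotype was that of Lig1, the ligase that also joins Okazaki fragments, with 3.22 (SE 0.40, adjusted p = 6.29e-05) in ctrl and 3.68 (SE 0.42, adjusted p = 4.29e-05) in Yap/Taz KO.

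Other branches showed few calls. None of 6 other mismatch repair genes passed in edgeR in either genotype, and none had an unadjusted p under 0.05. In end joining 0 of 8 genes rose, and Paxx, a factor that stabilises the joining complex, fell in both genotypes, with -2.15 (SE 0.50, adjusted p = 0.00643) in ctrl and -2.14 (SE 0.50, adjusted p = 0.00854) in Yap/Taz KO. In nucleotide excision repair 0 of 16 rose and 2 fell in ctrl, Xpa (-1.12, SE 0.29, adjusted p = 0.0122) and Rad23b (-0.63, SE 0.20, adjusted p = 0.0370), both of which act beside XPC. Of these 16, 1 rose in Yap/Taz KO, Ercc1, which encodes part of an incision nuclease (1.24, SE 0.40, adjusted p = 0.0432).

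Replication and mitosis genes are given beside the 33 for scale. Of 28 tested genes of origins and forks, 23 rose and 1 fell in ctrl and 23 rose in Yap/Taz KO, with medians of 2.77 and 2.86. All 25 mitosis genes rose in both genotypes, with medians of 5.52 and 6.40 (5.43 and 6.65 with genes of few uninjured counts at their bounds or ratios). The summed level of the repair genes rose from 221 ± 24.2 to 548 ± 36.2 CPM in ctrl and from 228 ± 3.53 to 488 ± 39.0 CPM in the knockouts (SD, n = 3 each). For mitosis the sums were 62.2 ± 63.7 and 2802 ± 390.2 CPM in ctrl and 33.1 ± 4.52 and 1987 ± 517 CPM in the knockouts. By role, the homologous recombination genes went from 30.03, 23.7 and 18.5 CPM in ctrl to 153, 138 and 156 CPM in ctrl + CCl4, and the Fanconi genes from 0.411, 0 and 1.42 to 19.4, 10.4 and 12.2 CPM. The checkpoint genes went from 36.6, 34.7 and 25.6 to 101, 120.2 and 115 CPM. In the knockouts these 3 sums were 25.4, 20.3 and 16.6 against 138, 136 and 113 CPM, 0.541, 1.93 and 0 against 16.1, 12.3 and 11.9 CPM, and 36.3, 40.5 and 43.4 against 95.3, 90.7 and 92.3 CPM.

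**Figure D5:**
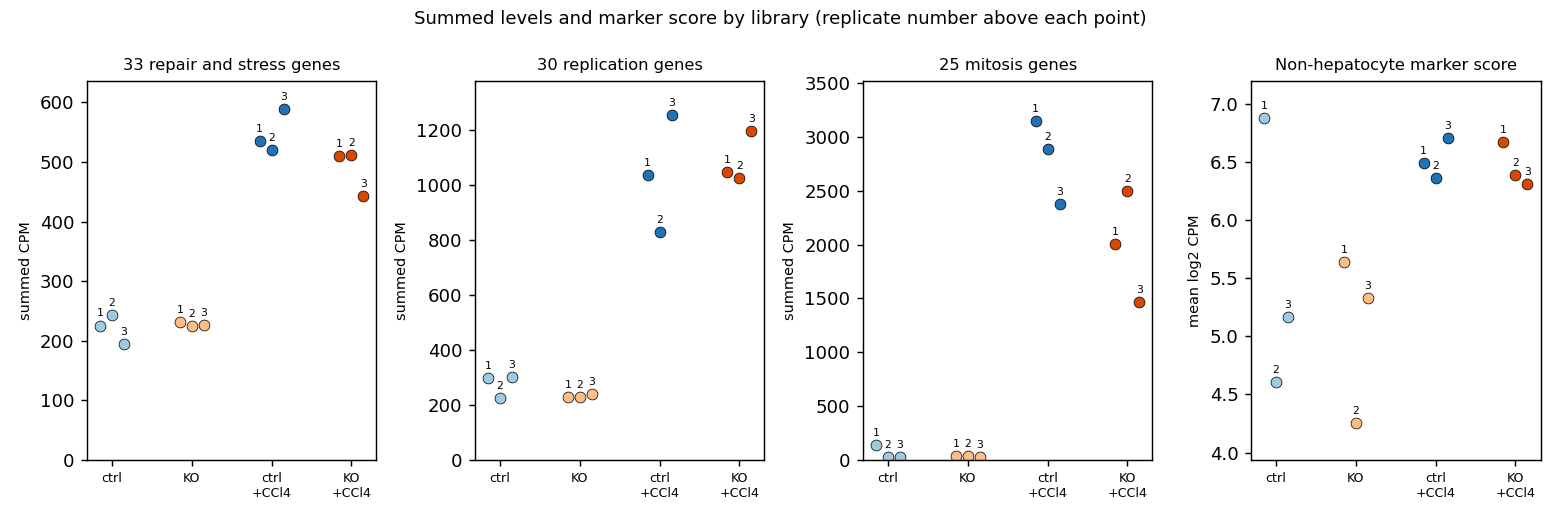
Summed level in CPM of the 33 genes, of 30 replication genes and of 25 mitosis genes, and the mean log2 CPM of markers of non-hepatocytes, in each library by group with its replicate number. The 3 sums are higher in all 6 injured libraries, and the marker score of ctrl replicate 1 lies above every injured library.

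Markers of other liver cells moved with injury too, and beyond a covariate fit their part in the result was not tested. Of 12 macrophage and Kupffer cell markers, led by Lyz2 and Cd5l, 3 rose in ctrl and 4 in Yap/Taz KO, and their summed level was 516 to 2795 CPM in ctrl, 2502 to 4388 in ctrl + CCl4, 239 to 1151 in Yap/Taz KO and 2019 to 3050.0 in Yap/Taz KO + CCl4. Of 7 tested monocyte and neutrophil markers, led by Plac8 and Ccr2, 4 and 7 rose, and of 12 stellate cell markers, led by Dcn and Sparc, 3 and 5. None of 10 sinusoidal endothelial markers passed in edgeR in either genotype, with 0 and 1 at an unadjusted p under 0.05. Of 3 tested cholangiocyte markers 1 rose in each. Of 4 tested erythroid markers 2 were called lower in ctrl and 0 were called in Yap/Taz KO. The erythroid list summed to 1584, 19.6 and 154 CPM in ctrl replicates 1 to 3 and to 119, 92.7 and 31.6 CPM in ctrl + CCl4. Ctrl replicate 1 was thus far above the rest, and ctrl replicate 2 lay below every ctrl + CCl4 library. Of 10 lymphocyte markers 1 was tested and did not pass, and Cd79a was at 0 in all libraries. The 8 hepatocyte markers gave 7 lower in ctrl and 3 lower in Yap/Taz KO.

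A marker score, the mean log2 CPM over the macrophage, endothelial and stellate lists, was 6.88, 4.60 and 5.17 in ctrl and 6.49, 6.36 and 6.71 in ctrl + CCl4. In the knockouts it was 5.64, 4.25 and 5.33 before and 6.67, 6.39 and 6.31 after injury. Ctrl replicate 1 thus had the highest score of all libraries. Its summed level of the 33 genes was 225 CPM, inside the uninjured range. Its homologous recombination sum was the highest in ctrl, at 30.03 CPM against 23.7 and 18.5 CPM in replicates 2 and 3. So was its mitosis sum, at 136 CPM against 24.7 and 26.3 CPM. How the score bears on these levels in a single library was not tested. With the score as covariate, 16 genes still rose in ctrl and Xpc still fell, with a median of 2.21. In Yap/Taz KO, where the score does not overlap between states, only Brca1 passed (adjusted p = 0.0317), the median was 1.96 and 26 of 28 values were above 0. Of all genes, 16.5% and 6.58% were called in those fits.

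Several calls were lost when 1 library was left out, in some cases a library outside the contrast. In ctrl, 11 of the 22 calls held whichever of the 12 libraries was left out: Brca2, Bard1, Brip1, Exo1, Rad50, Fancd2, Msh6, Neil3, Rad18, Chek1 and Xpc. Topbp1 was lost without any of 9 libraries, the exceptions being ctrl replicate 2 and Yap/Taz KO replicates 2 and 3 (adjusted p up to 0.140). Brca1 was lost without ctrl replicate 1 or 3, any ctrl + CCl4 library, or Yap/Taz KO + CCl4 replicate 1 or 2 (up to 0.0855). Without ctrl + CCl4 replicate 3 the calls of Rad51ap1, Rad54l, Mre11a, Fancb and Timeless were also lost, which left 14 genes higher. Without ctrl + CCl4 replicate 1 those of Blm, Fancb and Rad51ap1 were lost, and without replicate 2 those of Atm, Atr and Blm. Without ctrl replicate 1 Fancb was lost, without replicate 2 Atm, Fancb, Rad51ap1, Rad54l and Xrcc2, and without replicate 3 Atr, Blm and Rad51ap1. The highest adjusted p among these was 0.133, for Atr.

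In Yap/Taz KO, 9 of the 16 calls held without any 1 library: Brip1, Rad51ap1, Rad54l, Exo1, Fancd2, Ung, Neil3, Rad18 and Timeless. Chek2 was lost without any of 8 libraries (adjusted p up to 0.135), namely the 3 of ctrl + CCl4, the 3 of Yap/Taz KO and Yap/Taz KO + CCl4 replicates 1 and 3. Rad54b was lost without any of 8 (up to 0.124), the exceptions being the 3 of ctrl and Yap/Taz KO replicate 3. Brca1 was lost without any of 7 (up to 0.127), which were the 3 of ctrl + CCl4, Yap/Taz KO replicates 1 and 3 and Yap/Taz KO + CCl4 replicates 1 and 2. Eme1 was lost without Yap/Taz KO replicate 2 or 3 or Yap/Taz KO + CCl4 replicate 1 or 2 (up to 0.0733). Chek1 was lost without Yap/Taz KO replicate 1 or 3 or Yap/Taz KO + CCl4 replicate 1 (up to 0.0676). Bard1 was lost without replicate 2 of Yap/Taz KO or of Yap/Taz KO + CCl4 (up to 0.0687), and Blm without replicate 3 of either (up to 0.0720).

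The size of the fold changes also depended on single libraries. Leaving out 1 library moved the fold change of 11 called genes in ctrl and 11 in Yap/Taz KO by over 1.5 times on the linear scale; values here are log2 fold changes, and none changed sign. Without ctrl replicate 1 the response in ctrl moved for Rad51ap1 from 2.81 to 8.25, for Fancd2 from 4.79 to 6.94, for Chek1 from 5.91 to 8.07 and for Rad54l from 3.25 to 5.06. Rad18 moved from 2.91 to 4.31 and Brip1 from 2.57 to 3.59 without that library, while Bard1 fell from 4.96 to 4.29 and Fancb from 3.90 to 3.22. Without ctrl replicate 2, Bard1 moved to 7.99, Brca1 from 2.77 to 4.99, Topbp1 from 1.85 to 2.88 and Blm from 1.99 to 2.58. Fancb moved to 7.03 without ctrl replicate 3, and Rad54l to 2.63 without ctrl + CCl4 replicate 3. The remaining ctrl libraries were at 0 counts for Rad51ap1, Fancd2 and Chek1 without replicate 1. The same held for Bard1 without ctrl replicate 2 and for Fancb without ctrl replicate 3. The fitted values of these cases are therefore no bounds.

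For the response in Yap/Taz KO, leaving out Yap/Taz KO replicate 1 moved Rad51ap1 from 5.98 to 8.12, Rad18 from 4.02 to 4.72 and Brip1 from 2.73 to 3.48. Without replicate 2, Rad54l moved from 3.99 to 7.84, Brca1 from 2.73 to 3.67 and Chek1 from 2.38 to 3.35. Without replicate 3, Bard1 moved from 3.48 to 7.57, Rad54b from 3.14 to 7.47, Exo1 from 5.12 to 7.21 and Timeless from 2.11 to 3.22, while Rad54l fell to 3.38 and Brca1 to 2.11. Eme1 moved from 6.33 to 5.70 without Yap/Taz KO + CCl4 replicate 1. In 21 of the 27 cases over both responses the value was higher without the library. The remaining Yap/Taz KO libraries were at 0 counts for Rad51ap1 without replicate 1 and for Rad54l without replicate 2. The same held for Bard1, Rad54b and Exo1 without replicate 3, and Eme1 was at 0 in all Yap/Taz KO libraries. The fitted values of these cases, which are among the 27, are no bounds.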

How the data were processed

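Libraries were made with a 3′ tag kit (QuantSeq FWD) from polyA RNA, per the labels' protocols. The deposited table holds raw counts per gene symbol in 12 libraries. The submitters' processing notes list STAR 2.6.1d, cutadapt and FastQC, with GRCm38 and mm10 as builds. Counter, strand setting and annotation are not given in the sources used. Of 37141 genes, 17882 held 0 counts in all libraries. Genes were filtered with filterByExpr (minimum count 10, minimum total 15), scaled by TMM (factors 0.776 to 1.31) and tested with edgeR 4.0.16 in R 4.3.3 (quasi-likelihood F test, 1 coefficient for each of 4 groups, 5 contrasts, Benjamini-Hochberg adjustment over all 10780 genes, threshold 0.05). The common biological coefficient of variation was 0.323. Libraries of 1 group differed by more than sampling noise (chi-square divided by its degrees of freedom, 9.27 to 29.5). Standard errors come from the F statistic. Counting intervals and floors (3 counts over a group, 95%) cover counting error only. Alternatives were RLE factors, library totals, DESeq2 1.42.0, no filter, limma-voom 3.58.1, a minimum of 1 CPM in 3 samples, a replicate block, a marker score covariate, only the 6 samples compared, and leaving out each library. The 33 genes and all lists were chosen with earlier results of these data known. All 33 genes are accounted for; fold changes are given for genes past the threshold and for the 6 with the smallest p in each comparison, and other members are given with their values; of the other repair genes, those named are among the 2 with the smallest p of their list, and some of these are not reported here. The test was tried on simulated counts first.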

Additional observations from a re-analysis of the deposited data

How the results depend on the processing

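The number of the 33 genes called higher in ctrl was 19 to 23 under RLE factors, library totals, no filter, a 1 CPM filter, DESeq2 and limma-voom, 16 with the marker score covariate, and 13 with only the 6 samples compared, where fewer samples set the spread. In Yap/Taz KO it was 14 to 20 under the same settings, 16 in the 6 samples and 1 with the marker score covariate. Leaving out each library gave 14 to 21 genes higher and 1 lower in ctrl, 11 to 19 higher and 0 lower in Yap/Taz KO, and 0 in every other contrast, where all other settings also gave 0. Calls kept under every alternative numbered 10 in ctrl (Brca2, Bard1, Brip1, Exo1, Rad50, Fancd2, Msh6, Rad18, Chek1 and Xpc) and 0 in Yap/Taz KO. Leaving aside the marker covariate, the numbers were 10 in ctrl and 8 in Yap/Taz KO. With library totals the median of all genes shifted by 0.37 in both injury responses and by -0.14 in both knockout contrasts, and the summed level of the 33 genes became 655 CPM in ctrl + CCl4, 191 in Yap/Taz KO and 528 in Yap/Taz KO + CCl4; Xpc kept its fall in ctrl. Rad51ap1 changed sign without ctrl replicate 1 (leaving out each library gave -5.46 to 2.11 for the knockout effect before injury and -2.26 to 5.31 for the interaction) and Atr without ctrl + CCl4 replicate 2 (-0.64 to 0.046 for the knockout effect after injury); none of these was called, and the cause was not tested. Over all genes, library totals gave 1974 higher and 698 lower in ctrl against 1137 and 1290, and 1814 and 406 in Yap/Taz KO against 1016 and 900; the marker covariate gave 330 and 379 in Yap/Taz KO. Without ctrl replicate 1 the higher count in ctrl was 1707, and in Yap/Taz KO the counts were 625 and 565 without Yap/Taz KO replicate 2, 660 and 516 without Yap/Taz KO + CCl4 replicate 1 and 592 lower without replicate 2. Against 0 in edgeR, DESeq2 called 23 higher and 20 lower for the knockout before injury, 13 and 4 after it, and 9 and 3 for the interaction, and edgeR without a filter 75 and 135, 87 and 22, and 100 and 15. After injury the 6 samples compared gave 2 and 3, the covariate 1 and 1, and leaving out a library at most 3 higher and 1 lower, beside at most 1 and 1 before injury. Depth limits the genes near 0: 5 of the 33 were not tested.

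With the replicate number as a block, the same 22 calls were made in ctrl and the same 16 in Yap/Taz KO, and 0 in the other contrasts. Deviations of same-numbered samples correlated at -0.15 to 0.32 over 18 pairs, and those of other samples at -0.35 to 0.27 over 36 pairs. With 3 samples a group this cannot decide whether the numbers pair the samples, which the labels do not state.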

Other observations

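Several of the 33 genes end inside a neighbour on the opposite strand, and for a 3′ tag method whose counting is not stated to use strand such reads cannot be assigned with certainty. In GENCODE M21 the last 500 bases of Ddb2 lie wholly under exons of Acp2, and those of Fanca wholly under exons of Zfp276. For Fanci 372 of the 500 bases lie under Polg, for Fancd2 257 under Fancd2os, for Eme1 221 under Lrrc59 and for Msh6 34 under Fbxo11. Over all 12 libraries Ddb2 held 0 counts and Acp2 1395, Fanca 13 and Zfp276 156, Fanci 24 and Polg 347, and Eme1 73 and Lrrc59 597. Fancd2 held 104 and Fancd2os 1, and Msh6 397 and Fbxo11 836. Over all protein-coding genes, 28.1% of those with no such overlap, 13.8% of those with part of the window covered and 15.4% of those with all of it covered held 0 counts. The part of the overlap in the levels of Ddb2, Fanca and Fanci was not tested.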
